A study of Drosophila melanogaster with 12 samples.

Results

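RNA of female Drosophila melanogaster wings with RNAi against the ecdysone receptor gene EcR was compared with RNA of wild-type wings 6 h after puparium formation (+6 h). The comparison rests on 4 of the 12 samples of the series, 2 libraries of each genotype, and on 7775 of the 15240 genes in the expression table, those averaging 10 normalized counts or more across the 8 RNA libraries. A normalized count is a read count divided by a size factor of its library, and levels below are in this unit. The other 4 RNA libraries, 2 of each genotype at 6 h before puparium formation (-6 h), serve here only to share the estimate of spread and to compare the genotype difference between stages.

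The wild-type animals carried no transgene on any chromosome (labelled +/+ throughout). The EcR-RNAi animals carried yw on the X chromosome, the transgenes Vg-GAL4, UAS-Flp and Tub>>CD2>>GAL4, and UAS-GFP with UAS-EcR-RNAi[104]. In such a system Vg-GAL4, active in cells that express the wing gene vestigial, starts a recombinase that turns on a ubiquitous GAL4 for good, so that cells of that lineage make the EcR hairpin and GFP. All animals were raised at 25 degrees. Wandering larvae gave the wings at -6 h, and animals at +6 h were timed from the white prepupa. The wild type is not a driver-only control, so loss of EcR cannot be told apart from the transgenes, GFP or the strain background. Whole wings were used, and reads from cells with and without the hairpin are mixed. Whether replicates are separate animals or pools is not stated in the sources used here, so p-values reflect spread among these libraries only, and that spread may be technical.

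Ecdysone is the steroid hormone that times molting and metamorphosis in insects. Its active form binds a heterodimer of the nuclear receptors EcR and Usp, which switches on a small set of early genes for transcription factors, and these in turn control later genes. Without hormone the same heterodimer can repress its targets together with corepressors. The pulse at the end of larval life makes the wing disc evert and flatten into a wing. In the following hours its epithelium lays down the pupal cuticle, while the hormone level falls.

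EcR itself was lower in the EcR-RNAi wing. Its level was 5764 and 6852 in the wild-type libraries at +6 h and 2201 and 2081 in the EcR-RNAi libraries, a log2 fold change of -1.55 ± 0.14 (EcR-RNAi minus wild type, ± standard error; limma padj = 1.0e-05). The genotypes did not overlap. The difference at +6 h was larger than at -6 h, where the levels were 2194 and 1924 against 1634 and 1307, with an interaction of -1.06 ± 0.2 (limma padj = 0.00234). The interaction is the genotype difference at +6 h minus that at -6 h. Whether reads of the EcR hairpin were counted under EcR in the EcR-RNAi libraries was not tested. Fewer cells of a type and less RNA per cell cannot be told apart in any value below.

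Of the 7775 genes, 3333 (42.9%) differed between the genotypes at +6 h at a Benjamini-Hochberg adjusted p (padj) under 0.05 in limma. Of these, 1653 were higher in EcR-RNAi (21.3% of the genes tested) and 1680 were lower (21.6%). The median log2 fold change over all genes tested was 0.0043. Among the genes called higher the median was 0.82, with 603 at least 2-fold apart (36.5%), 140 at least 4-fold and 26 at least 32-fold. Among the genes called lower it was -0.78, with 605 at least 2-fold apart (36.0%), 199 at least 4-fold and 9 at least 32-fold. In 5716 genes (73.5%) no library of one genotype fell within the range of the other. These include all 1653 genes called higher and all 1680 called lower, so separation of the libraries adds no support to a call. Increases made up 49.6% of the calls, but 64.4% with upper-quartile scaling, which moved the median of all genes by 0.15 and gave 2231 increases and 1235 decreases. Without replicate 2 of EcR-RNAi at +6 h, 1094 genes were called higher and 1196 lower. The authors' deposited table for this comparison has 2606 genes under the same threshold, 1181 higher and 1425 lower in EcR-RNAi, and of those 2499 were called here in the same direction and 0 in the opposite one.

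**Figure D1:**
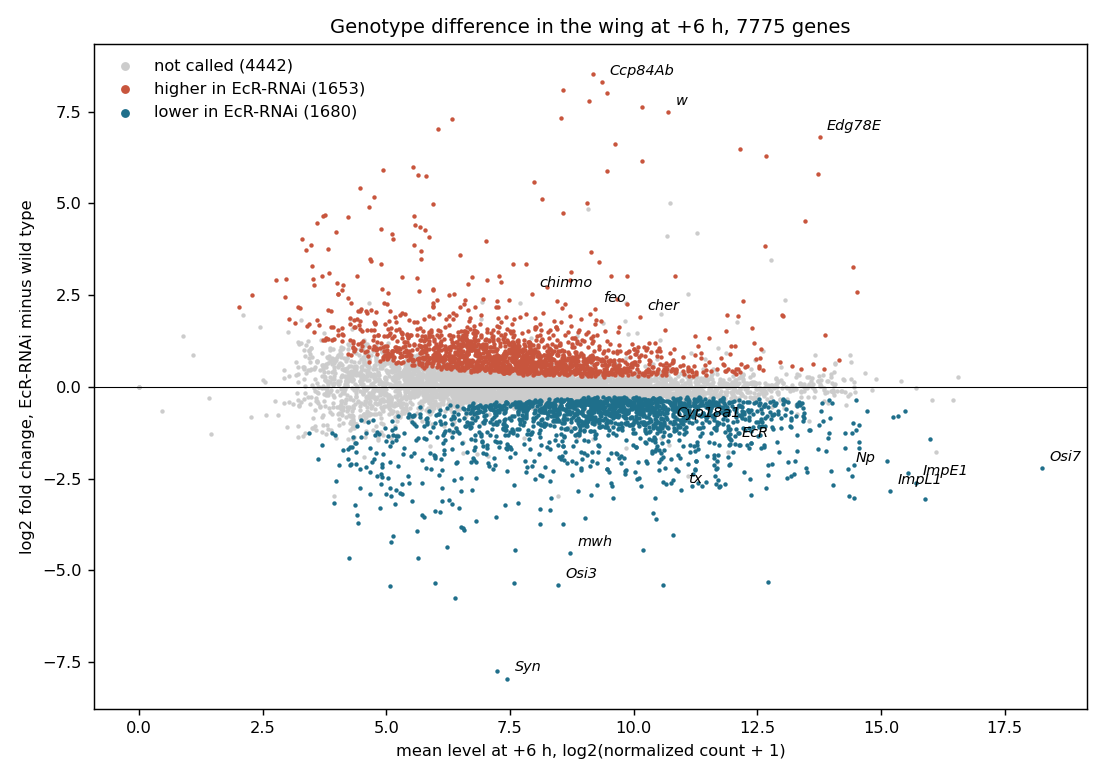
Each point is 1 of the 7775 genes tested at +6 h. The horizontal axis is the mean level over the 4 libraries as log2(normalized count + 1), and the vertical axis is the log2 fold change, EcR-RNAi minus wild type. Red points are the 1653 genes called higher, blue points the 1680 called lower and grey points the 4442 not called. Cuticle genes such as Ccp84Ab lie at the top of the plot, and Osi7 (-2.21) is the gene with the highest mean level.

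In what follows a bracket holds the log2 fold change, its standard error and the adjusted p. If any alternative analysis lost a call, the highest adjusted p among the alternatives follows as "at most". A pair of levels joined by "against" is wild type first, then EcR-RNAi. Counts of called genes in a gene group can be read against the 21.3% higher and 21.6% lower among all genes, and group medians against the median of 0.0043.

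Of the 12 genes tested for the ecdysone receptor, its partner and its cofactors, 4 fell and 1 rose, with a median of -0.19 that turned to 0.039 with quantile scaling. The partner usp fell from 1142 and 1296 in wild type to 796 and 842 in EcR-RNAi (-0.57 ± 0.11, limma padj = 0.00216). The other changes beside EcR itself were of 3 cofactors. DOR, a coactivator of ecdysone signalling that is also linked to autophagy, was at 1570.3 and 1787 in wild type and 884 and 838 in EcR-RNAi (-0.96 ± 0.13, limma padj = 1.9e-04). bon, a cofactor of nuclear receptors, was at 2446 and 2582 against 1833 and 1925 (-0.42 ± 0.099, limma padj = 0.00559, at most 0.381 in the alternatives), a call that ended with quantile scaling (log2 fold change -0.11) and without replicate 1 of EcR-RNAi at +6 h (-0.38). rig, a gene for a WD-repeat protein that binds nuclear receptors, rose from 240.1 and 188 to 392 and 388 (0.87 ± 0.13, limma padj = 2.6e-04). The coactivator tai (-0.33 ± 0.15), the corepressor Smr (0.1 ± 0.16), the methyltransferase gene trr (-0.038 ± 0.12), the demethylase gene Utx (-0.25 ± 0.13), the remodeler gene E(bx) (0.26 ± 0.19), Hcf (0.27 ± 0.14) and CoRest (-0.14 ± 0.1) were not called.

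Of 10 early ecdysone genes tested, 5 fell and 2 rose, with a median of -0.39 (0.0086 with quantile scaling). Eip74EF, which encodes an ETS transcription factor, was at 1906 and 2041 in wild type and 1241 and 1325 in EcR-RNAi (-0.62 ± 0.12, limma padj = 0.00157). Eip75B, a nuclear receptor gene, was at 6876 and 6979.7 against 5296 and 4978 (-0.43 ± 0.12, limma padj = 0.0156, at most 0.528 in the alternatives). Both were lower in each EcR-RNAi library than in each wild-type one, but the Eip75B call ended with upper-quartile (-0.28) and quantile scaling (-0.088) and without any 1 of the 4 libraries at +6 h. The ABC transporter gene E23, whose product limits the ecdysone response, was at 4098 and 4537 in wild type and 1956 and 2043 in EcR-RNAi (-1.11 ± 0.11, limma padj = 2.0e-05). vri, a bZIP factor gene, was at 5099 and 6476 against 2179.9 and 2103 (-1.42 ± 0.18, limma padj = 1.9e-04). Eip71CD, which encodes a methionine sulfoxide reductase, was at 513 and 589.5 against 224 and 210.1 (-1.34 ± 0.13, limma padj = 1.5e-05). These 3 genes were more than 2-fold lower in EcR-RNAi. Kr-h1, a zinc finger gene best known as a target of juvenile hormone, rose from 607 and 745 to 1481 and 1274 (1.03 ± 0.13, limma padj = 1.1e-04), and the zinc finger gene crol rose from 5912 and 6282 to 10153 and 9355 (0.68 ± 0.13, limma padj = 0.00184). The broad gene br, the most abundant of the group, was at 95013 and 105705 in wild type and 85279 and 72215 in EcR-RNAi and was not called (-0.35 ± 0.21). Nor were Eip63E (0.19 ± 0.12) and Eip55E (0.28 ± 0.13).

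Of 11 early-late and prepupal regulators tested, 4 fell and 3 rose, with a median of 0.32. ftz-f1, the nuclear receptor gene that marks the low-hormone phase of the prepupa, was at 6359 and 4085 in wild type and 2278 and 2069 in EcR-RNAi (-1.23 ± 0.29, limma padj = 0.0156, at most 0.0745 in the alternatives). The wild-type replicates were far apart, yet both lay above the EcR-RNAi pair. It was no longer called when either EcR-RNAi library at +6 h was left out. Hr4, a nuclear receptor gene, was at 11343 and 12523 against 6722 and 6528 (-0.85 ± 0.13, limma padj = 3.0e-04), and Eip78C, another, at 781 and 941 against 508 and 528 (-0.73 ± 0.14, limma padj = 0.00177). The nuclear receptor gene Hr78 was at 613 and 632 against 506 and 494 (-0.32 ± 0.1, limma padj = 0.0259, at most 0.235 in the alternatives), and its call ended without any 1 of the 4 libraries, under 3 other scalings and with DESeq2. The decreases numbered 2 without either EcR-RNAi library at +6 h.

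The 3 regulators that rose were chinmo, Hr38 and let-7-C. chinmo, a BTB zinc finger gene of juvenile and early larval states, was at 80.5 and 62.9 in wild type and 444 and 395 in EcR-RNAi (2.54 ± 0.35, limma padj = 0.0014). let-7-C, the transcript of the locus that holds the let-7 microRNA, was at 62.6 and 56.6 against 124 and 113 (0.98 ± 0.19, limma padj = 0.00172). Hr38, a nuclear receptor gene that can also pair with Usp, was at 5.96 and 5.25 against 33.2 and 29.6 (2.29 ± 0.51, limma padj = 0.00406). The increases numbered 5 with upper-quartile, quantile or TMM scaling, with edgeR, and without either EcR-RNAi library at -6 h. Hr46 (also called Hr3), a nuclear receptor gene upstream of ftz-f1, was at 5197 and 5037 in wild type and 5287 and 4675 in EcR-RNAi, with overlapping libraries (-0.041 ± 0.13). The repressor gene Blimp-1 was at 650.2 and 687 against 1336 and 989 and missed the threshold (0.78 ± 0.27, limma padj = 0.0568), though it passed in 9 of the alternatives, among them edgeR (adjusted p = 0.0411), DESeq2 (0.00215) and a fit of the 4 libraries alone (6.3e-04). The nuclear receptor gene Hr39 (0.32 ± 0.12, limma padj = 0.0563) and the metamorphosis factor gene Eip93F (0.58 ± 0.32, limma padj = 0.181) were not called either. Hr39 passed in several alternatives, among them edgeR (adjusted p = 0.0432) and limma with TMM scaling (0.0291). Eip93F passed when replicate number was added to the limma model (0.0219).

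**Figure D2:**
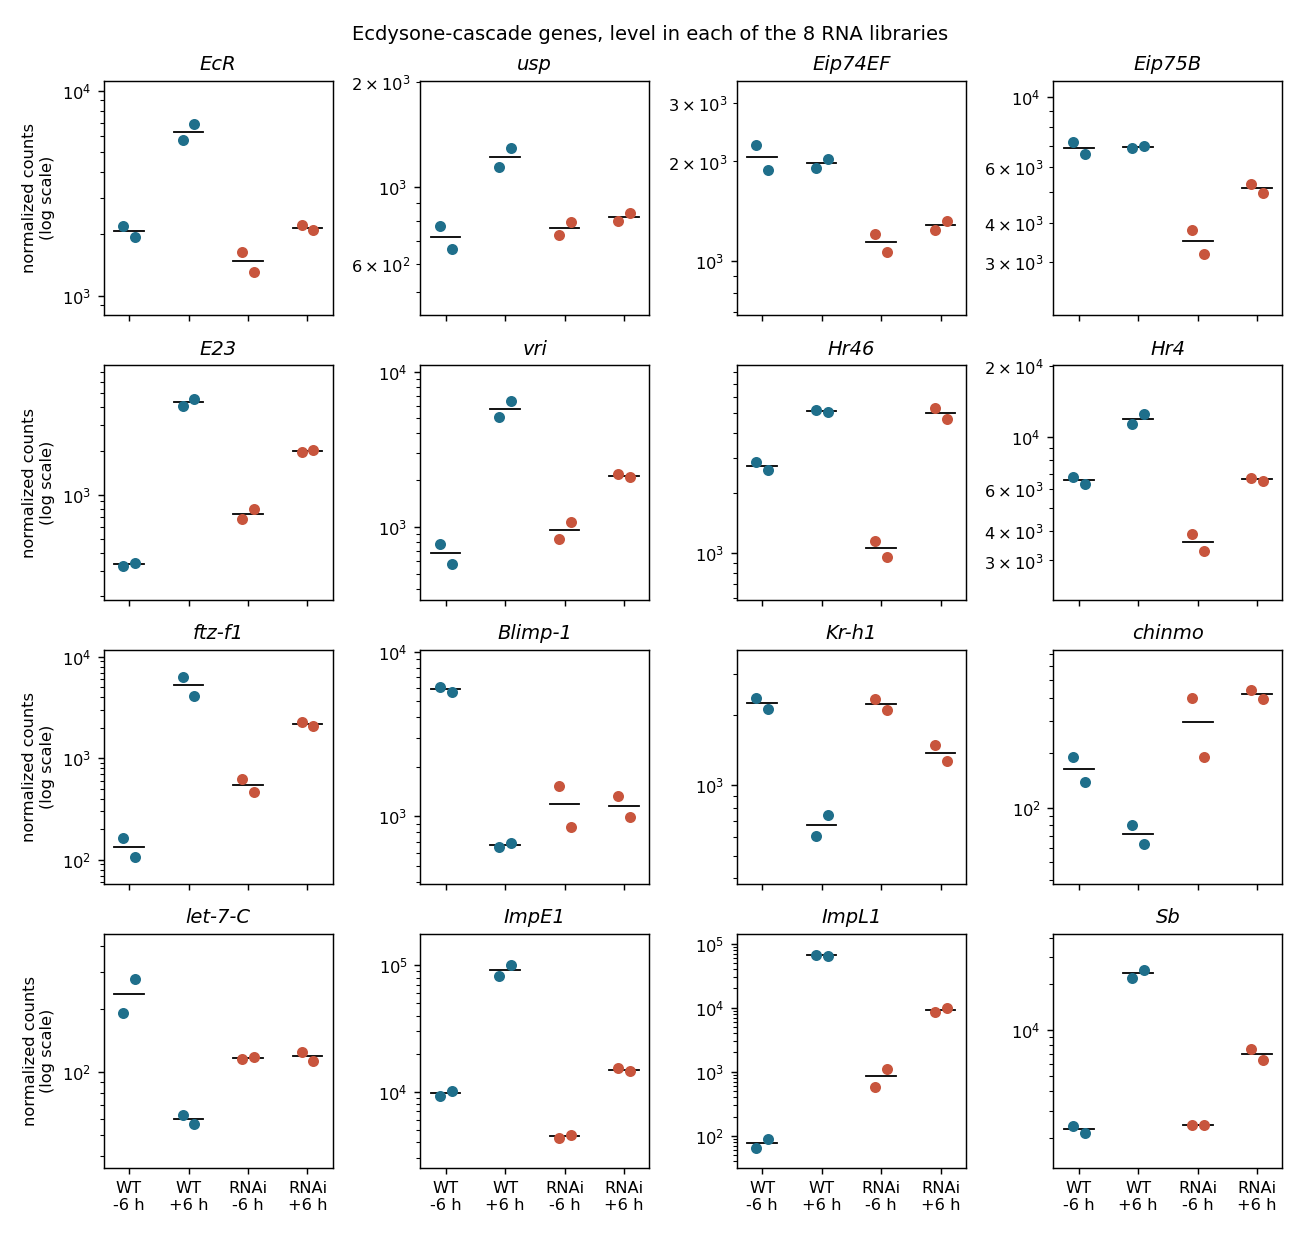
Each panel shows 1 gene of the ecdysone groups, with its level in normalized counts on a log axis in all 8 RNA libraries. Points are libraries, short lines the mean of the 2 libraries of a group, blue is wild type and red EcR-RNAi, at -6 h and +6 h. In the ImpE1 and ImpL1 panels both wild-type points at +6 h lie above both EcR-RNAi points, while the Hr46 points of the 2 genotypes at +6 h overlap (5197 and 5037 against 5287 and 4675).

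Only 4 of 10 genes for the synthesis, uptake and inactivation of ecdysone had enough reads to be tested. Cyp18a1, which encodes the enzyme that inactivates the hormone, was at 2483 and 2004 in wild type and 1076 and 1147 in EcR-RNAi. The difference missed the threshold (-1.0 ± 0.34, limma padj = 0.0554) but passed it when the 4 libraries were fitted alone (adjusted p = 8.1e-06). Oatp74D, the ecdysone importer gene, was at 1189 and 1279.7 against 987 and 887 (-0.4 ± 0.1, limma padj = 0.00852, at most 0.205 in the alternatives). phm, a biosynthesis enzyme gene active mainly in the prothoracic gland, was at 11.9 and 11.5 against 43.1 and 38.5 (1.71 ± 0.56, limma padj = 0.0286, at most 0.134 in the alternatives), a call that ended without any 1 of the 4 libraries. The synthesis enzyme gene sad was not called (-0.26 ± 0.39).

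Of the 7 ecdysone-inducible disc genes, all tested, 6 fell and 1 rose, with a median of -1.75. Most of them were first isolated as hormone-induced transcripts of imaginal discs. ImpE1 was at 82674 and 100318 in wild type and 15432 and 14531 in EcR-RNAi (-2.6 ± 0.14, limma padj = 2.8e-07). ImpL1 was at 65989 and 65088 against 8691 and 9798 (-2.83 ± 0.31, limma padj = 5.9e-04). ImpE2 was at 88309 and 102604 against 35878 and 35065 (-1.42 ± 0.14, limma padj = 2.3e-05), with a log2 fold change of -0.62 under quantile scaling. These 3 were among the most abundant transcripts of the wild-type wing, and each wild-type library was more than 2-fold above each EcR-RNAi library. Sb, which encodes a transmembrane serine protease needed for disc eversion, was at 21955 and 24786 in wild type and 7544 and 6363 in EcR-RNAi (-1.75 ± 0.13, limma padj = 2.4e-06). The lactate dehydrogenase gene ImpL3 was at 2271 and 2392 against 699 and 641 (-1.8 ± 0.14, limma padj = 5.2e-06). ImpL2, whose product binds and antagonizes insulin-like peptides, was at 2441 and 1698 against 998 and 959.8 (-1.06 ± 0.15, limma padj = 2.8e-04). All 3 fell without overlap between the genotypes. ImpE3, the least abundant of the 7 genes in wild type, went the other way, from 739.7 and 879 to 2201 and 2523 (1.55 ± 0.14, limma padj = 1.4e-05). Summed over the 7 genes, wild type held 264380 and 297765 normalized counts and EcR-RNAi 71441 and 69880.

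Osiris genes encode insect-specific membrane proteins that appear in epithelia while cuticle is being made. Of 24 in the table, 13 could be tested, and 11 fell and 0 rose in EcR-RNAi, with a median of -2.42. Osi7 had the highest level of any gene in the 4 libraries, 571450.2 and 457986 in wild type and 112092 and 109756 in EcR-RNAi (-2.21 ± 0.45, limma padj = 0.0108, at most 0.624 in the alternatives). It took 5.60% and 4.58% of wild-type reads and 1.41% and 1.42% of EcR-RNAi reads. Osi3 fell most, from 678 and 711 to 16 and 14.8 (-5.41 ± 0.44, limma padj = 5.9e-06). Osi9 was at 2675 and 2282 against 221 and 229.8 (-3.45 ± 0.15, limma padj = 1.5e-07), and Osi24 at 2884 and 3199 against 528 and 524 (-2.53 ± 0.12, limma padj = 1.5e-07). The call of Osi7 ended with quantile scaling (log2 fold change -0.34, adjusted p = 0.624), which gives genes of the same rank the same value in every library, and without replicate 1 of wild type (adjusted p = 0.0588). For these 4 genes the levels as deposited were more than 4-fold apart between genotypes. Osi6 (-1.76 ± 0.73) and Osi15 (-1.66 ± 0.65) were lower by value but not called. All 13 genes were called lower with the 4 libraries fitted alone or with DESeq2, and 9 with quantile scaling. Calls numbered 6 and 7 without replicates 1 and 2 of wild type, and 7 without replicate 1 of EcR-RNAi. In the Release 6 gene order, Osi1, Osi24, Osi2, Osi3 and Osi5 lie next to each other among tested genes, preceded by CG31559, and all 6 were called lower.

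Zona pellucida domain proteins shape the apical extracellular matrix of epithelia. Of 13 genes tested for this matrix, 8 fell and 2 rose, with a median of -1.72. nyo was at 26567 and 31711 in wild type and 4755 and 4350.3 in EcR-RNAi (-2.67 ± 0.13, limma padj = 1.5e-07), and tyn at 7805 and 8225 against 1543 and 1675 (-2.32 ± 0.14, limma padj = 7.8e-07). ect, a gene for a secreted apical protein, was at 111349.8 and 106518 against 13875 and 12192 (-3.07 ± 0.27, limma padj = 1.1e-04). m, cyr, dyl, neo and dp fell too, with dp, the giant apical protein Dumpy, the least changed (-0.78 ± 0.14). The zona pellucida gene mey rose from 133 and 206 to 551 and 581 (1.77 ± 0.19, limma padj = 3.8e-05), and pio from 1702 and 1774 to 2344 and 2368 (0.44 ± 0.1, limma padj = 0.00469). Summed over the group, wild type held 247412 and 241904 normalized counts and EcR-RNAi 68666 and 64531.

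Wing cells later grow a single actin-rich hair each, which points distally. Of 15 genes tested for wing hairs and actin bundles, 8 fell and 2 rose, with a median of -0.37 (-0.22 with upper-quartile and -0.03 with quantile scaling), and 6 decreases under either scaling. mwh, the multiple wing hairs gene that limits where hairs form, was at 798 and 806 in wild type and 30.8 and 37.5 in EcR-RNAi (-4.52 ± 0.2, limma padj = 1.5e-07). spir, an actin nucleator gene, was at 5795 and 5327 against 908 and 883 (-2.63 ± 0.12, limma padj = 1.5e-07). Both were more than 6-fold lower. The bundler gene f (-2.02 ± 0.13, limma padj = 1.1e-06), the formin genes Fhos (-1.59 ± 0.096, limma padj = 7.8e-07) and DAAM (-1.14 ± 0.12, limma padj = 2.8e-05), the myosin gene ck, sn and the cofilin gene tsr fell as well. The filamin gene cher rose from 438 and 507 to 1799.8 and 1709 (1.89 ± 0.11, limma padj = 5.4e-07), and the myosin VI gene jar from 1212 and 1530.4 to 2105 and 2197 (0.66 ± 0.13, limma padj = 0.00176). Of 10 planar cell polarity genes, which orient the hairs, 3 fell and 1 rose, with a median of -0.18 (-0.026 with upper-quartile and -0.055 with quantile scaling). The cadherin gene stan was at 5631 and 5835 against 3105 and 2875 (-0.94 ± 0.11, limma padj = 5.8e-05), and frtz at 620.4 and 588 against 319 and 360.1 (-0.83 ± 0.11, limma padj = 1.9e-04). dgo fell by 0.46 on the log2 scale. pk rose from 966 and 966 to 1925 and 1862 (0.97 ± 0.11, limma padj = 4.0e-05).

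**Figure D3:**
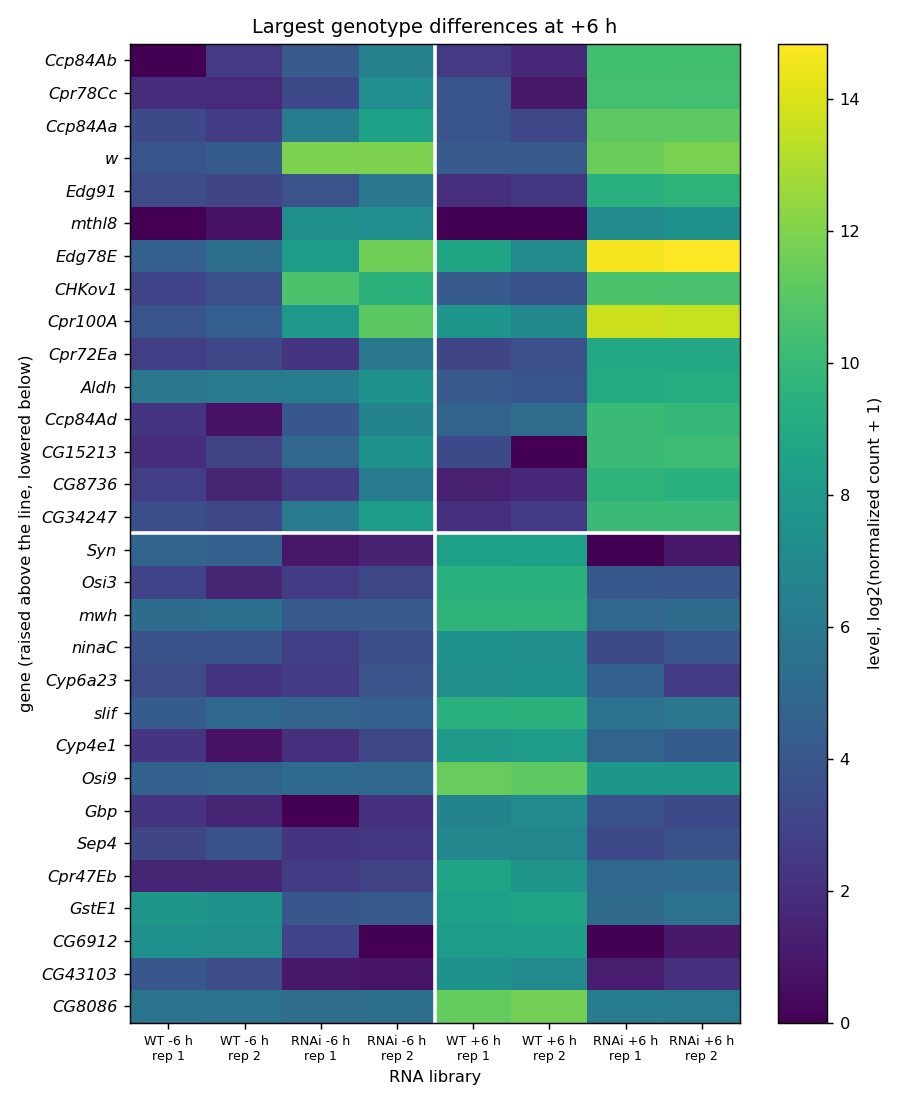
Heat map of the level, log2(normalized count + 1), of 30 genes in the 8 RNA libraries: the 15 with the largest increases at +6 h above the white line and the 15 with the largest decreases below it, chosen among genes with a mean of at least 100 in the higher genotype. These rows were selected by the difference they show. Cuticle genes such as Edg78E reach the top of the scale in both EcR-RNAi libraries at +6 h, and w, mthl8 and CHKov1 are high in EcR-RNAi at both stages.

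Part of the cuticle protein genes rose in the EcR-RNAi wing. Of 122 in the table, 40 could be tested, and 19 rose, 3 fell and 18 were not called, with a median of 1.91. Among all genes tested, 21.3% rose and 21.6% fell. The filter averages over the EcR-RNAi libraries too, so genes near 0 in wild type could pass through their EcR-RNAi levels alone. This can tilt the split and the median of the group upward. The genes of pupal and larval cuticle are switched on in waves as the hormone rises and falls. Edg78E, an ecdysone-dependent cuticle gene, was at 436 and 136 in wild type and 25742 and 29329.5 in EcR-RNAi (6.81 ± 1.36, limma padj = 0.0186, at most 0.0872 in the alternatives). Edg91 was at 2.98 and 4.2 against 682 and 788 (7.33 ± 0.61, limma padj = 4.9e-05). Cpr100A was at 221 and 119.6 against 13193 and 12604 (6.3 ± 1.14, limma padj = 0.0137, at most 0.0691 in the alternatives). In these 3 genes the EcR-RNAi replicates were close together, and wild-type replicates of Edg78E were 3-fold apart. Ccp84Ab (8.31 ± 1.04, limma padj = 0.00157), Ccp84Aa (7.62 ± 0.77, limma padj = 0.00107) and Ccp84Ad (5.0 ± 0.99, limma padj = 0.0125, at most 0.0749 in the alternatives) also rose. Their levels were 4.47 and 2.1 in wild type against 1313 and 1307 in EcR-RNAi for Ccp84Ab, 13.4 and 8.39 against 2321 and 2256 for Ccp84Aa, and 25.4 and 37.8 against 1127 and 930.2 for Ccp84Ad. These genes are close copies of each other, so their reads may be shared. Ccp84Af, Ccp84Ad, the noncoding gene pncr002:3R, Ccp84Ab and Ccp84Aa lie next to each other among tested genes, and all 5 were called higher.

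Further cuticle genes with large increases were Cpr78Cc (8.01 ± 1.64, limma padj = 0.0178, at most 0.0747 in the alternatives) and Cpr72Ea (5.59 ± 1.17, limma padj = 0.0141, at most 0.0872 in the alternatives), while Cpr31A (2.35 ± 0.22, limma padj = 1.6e-05) and Cpr49Ag (1.64 ± 0.16, limma padj = 1.7e-05) had the smallest adjusted p of the group. The calls of Cpr78Cc, Cpr72Ea, Edg78E, Cpr100A and Ccp84Ad each ended when some single library at +6 h was left out, where their log2 fold changes were 4.72 to 8.03. Cpr47Eb was at 410.1 and 204 in wild type and 28.3 and 32.5 in EcR-RNAi (-3.21 ± 0.4, limma padj = 9.1e-05), and Cpr47Ea at 139 and 136 against 16 and 14.8 (-3.08 ± 0.56, limma padj = 0.00112). With Cpr35B (-0.66 ± 0.24) they were the 3 that fell. The 2 wild-type libraries at +6 h differed in this group, with summed levels of 64137 in replicate 1 and 25162 in replicate 2, against 117034 and 127716 in EcR-RNAi. TwdlT, for example, was at 27787 and 8934 in wild type and 23949.5 and 26152 in EcR-RNAi (0.67 ± 0.92) and was not called. Without replicate 2 of wild type the increases numbered 12. With the 4 libraries fitted alone they numbered 25, and with DESeq2 23. The EcR-RNAi libraries at -6 h, which share the estimate of spread, also differed in this group, with summed levels of 9180 and 22496. The part of either spread in the result was not tested.

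Of 22 genes tested for chitin synthesis, assembly and breakdown, 5 rose and 4 fell, with a median of 0.41. Cht5, a molting chitinase gene, was at 7252 and 5407 in wild type and 1383 and 1458 in EcR-RNAi (-2.14 ± 0.15, limma padj = 1.8e-06), and the chitinase gene Cht3 at 16801 and 16671 against 7520.2 and 7463 (-1.16 ± 0.12, limma padj = 2.5e-05). The chitin synthase gene kkv (-0.41 ± 0.14, limma padj = 0.0379, at most 0.763 in the alternatives) and the assembly gene knk (-0.71 ± 0.11) fell with them. obst-A, a chitin-binding protein gene, was at 15693 and 12025 against 22557 and 23096 (0.73 ± 0.17, limma padj = 0.00614, at most 0.0668 in the alternatives), and the disc growth factor gene Idgf4 at 115 and 103 against 164 and 186 (0.68 ± 0.12, limma padj = 7.7e-04). The other 3 that rose were obst-B, Cda4 and Gasp, also genes of chitin-binding or chitin-modifying proteins. The increases numbered 9 without replicate 1 of wild type and 1 without replicate 2 of EcR-RNAi.

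Tanning and pigment genes moved both ways, 5 higher and 6 lower of 16 tested, with a median of 0.013 (-0.10 with quantile scaling). The oxidase gene laccase2, which hardens cuticle, was at 6257 and 5676 in wild type and 2629 and 2708 in EcR-RNAi (-1.16 ± 0.11, limma padj = 1.4e-05). amd, which is needed for catecholamine metabolism in cuticle, was at 1561 and 1449.6 against 332 and 281 (-2.3 ± 0.18, limma padj = 4.9e-06). yellow-d, yellow-h, yellow-e2 and Gld fell too. yellow-b rose from 22.4 and 24.1 to 121 and 159.8 (2.53 ± 0.27, limma padj = 4.2e-05), and Pu, the first enzyme gene of pteridine and cofactor synthesis, from 40.3 and 49.3 to 78.7 and 89.8 (0.9 ± 0.21, limma padj = 0.0054, at most 0.0507 in the alternatives). Ddc, Dat and yellow-c rose from low levels, and the increases numbered 1 or 2 without replicate 2 of wild type or either EcR-RNAi library.

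Integrins hold both wing surfaces to the matrix between them. Of 15 integrin and linker genes tested, 11 fell and 1 rose, with a median of -0.45. None of the 11 decreases reached 2-fold. mys, the main beta integrin gene, was at 6560.2 and 5786 in wild type and 4176 and 3798 in EcR-RNAi (-0.63 ± 0.11, limma padj = 0.00114, at most 0.0578 in the alternatives). The alpha integrin gene scb was at 1467 and 1334 against 775 and 897 (-0.75 ± 0.13, limma padj = 7.0e-04), and the paxillin gene Pax at 1378 and 1348 against 893 and 930.2 (-0.58 ± 0.094, limma padj = 5.6e-04). if, mew, rhea, Ilk, parvin, Fak, by and Vinc were the others that fell, and 7 of the 15 were called lower with upper-quartile or quantile scaling. The integrin ligand gene Tig rose from 26.8 and 14.7 to 105 and 109.5 (2.37 ± 0.27, limma padj = 5.3e-05).

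Of 13 basement membrane genes, 4 fell and 1 rose, with a median of -0.20 that turned to 0.077 with quantile scaling. The laminin gene wb was at 6083 and 6030.4 in wild type and 1647 and 1586 in EcR-RNAi (-1.91 ± 0.1, limma padj = 3.5e-07). The collagen IV gene vkg was at 518 and 466 against 214 and 291 (-0.97 ± 0.16, limma padj = 5.8e-04). LanB2 and Pxn fell by 0.66 and 1.17. mp, a collagen XV/XVIII gene, rose from 25.4 and 37.8 to 116 and 113 (1.85 ± 0.19, limma padj = 2.8e-05). Of 13 matrix protease and inhibitor genes, 5 fell and 3 rose, with a median of -0.34 (-0.18 with upper-quartile and -0.019 with quantile scaling). The transmembrane protease gene Np was at 33001 and 35558 against 7810.5 and 6701 (-2.24 ± 0.14, limma padj = 7.8e-07), and Sb, described above, also belongs here. The matrix metalloproteinase genes Mmp1 (-0.74 ± 0.11, limma padj = 4.1e-04) and Mmp2 (-0.66 ± 0.11, limma padj = 5.3e-04) fell, as did Fur1. The inhibitor gene Timp rose from 37.3 and 24.1 to 155 and 166 (2.38 ± 0.25, limma padj = 2.7e-05), the protease gene tld from 25.4 and 24.1 to 57.8 and 60.2 (1.22 ± 0.18, limma padj = 3.4e-04), and tok by 0.43.

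Glycolysis genes were lower in EcR-RNAi. Of 13 tested, 9 fell and 1 rose, with a median of -0.80. Pfk, the gene for phosphofructokinase, was at 2329 and 2441 in wild type and 989 and 934 in EcR-RNAi (-1.31 ± 0.11, limma padj = 5.9e-06). Gapdh1 was at 2659 and 2544 against 1149 and 1319 (-1.08 ± 0.12, limma padj = 4.9e-05), and Eno at 7274 and 7612 against 3895 and 3850.2 (-0.94 ± 0.12, limma padj = 1.1e-04). The genotypes did not overlap in these 3 genes, which holds for every called gene. ImpL3, already described, showed the largest decrease of the group. The hexokinase gene Hex-A was at 1489.8 and 2134 against 2549 and 2627 (0.54 ± 0.15, limma padj = 0.0141, at most 0.134 in the alternatives), and its log2 fold change was 0.28 without replicate 1 of wild type.

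The genes of the endoplasmic reticulum and the secretory route fell together, 17 of 19 tested and 0 higher, with a median of -0.81 (-0.66, -0.44 and -0.76 with upper-quartile, quantile and TMM scaling). Trp1, a gene for a translocon-associated protein, was at 5000.3 and 5836 in wild type and 1041 and 984 in EcR-RNAi (-2.42 ± 0.11, limma padj = 1.5e-07). The cargo receptor gene ergic53 was at 3646 and 3909 against 1661 and 1531 (-1.24 ± 0.1, limma padj = 5.6e-06). The chaperone gene Hsc70-3, the fly BiP, was at 28009 and 35728 against 14482 and 13779 (-1.16 ± 0.15, limma padj = 1.0e-04). In each the lowest wild-type value exceeded the highest EcR-RNAi value. Summed over the 19 genes, wild type held 148389 and 164330 normalized counts and EcR-RNAi 82683 and 79696.

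Cell division genes were higher in EcR-RNAi. Of 35 DNA replication genes tested, 31 rose and 0 fell, with a median of 0.92. Of 42 mitosis genes, 38 rose and 0 fell, with a median of 1.19. feo, a gene for a microtubule bundler of the central spindle, was at 199.8 and 251 in wild type and 956 and 989 in EcR-RNAi (2.11 ± 0.13, limma padj = 7.8e-07). The spindle pole gene asp was at 286 and 265 against 937 and 887 (1.72 ± 0.11, limma padj = 8.1e-07). Both were more than 3-fold higher, with no overlap. Psf3, a subunit gene of the replicative helicase complex GINS, was at 26.8 and 35.7 against 118 and 124 (1.93 ± 0.2, limma padj = 2.5e-05), and the helicase subunit gene Mcm3 at 128 and 130.1 against 285 and 277 (1.12 ± 0.11, limma padj = 2.1e-05). Summed over the groups, mitosis genes held 11344 and 11081 in wild type and 22941 and 22704 in EcR-RNAi, and replication genes 4660 and 4059 against 7948 and 8350. At -6 h the sums were 29393 and 28825 against 29506 and 28099 for mitosis, and 12067 and 11909 against 10444 and 10176 for replication. In both genotypes these sums were thus lower at +6 h than at -6 h. Of 12 genes of G1-S control, 5 rose and 1 fell, with a median of 0.37. cdc2c, the fly Cdk2, was at 298 and 268 against 562 and 654 (1.1 ± 0.12, limma padj = 3.6e-05), and its partner CycE at 595 and 548 against 955 and 901 (0.7 ± 0.11, limma padj = 5.6e-04). CycD, Rbf and Rbf2 rose too, and 3 genes were called higher without replicate 1 of EcR-RNAi. The transcription factor gene E2f was at 5416 and 5125 against 4095 and 3320.4 (-0.51 ± 0.15, limma padj = 0.0178, at most 0.296 in the alternatives).

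Genes of ribosome assembly rose in the same way, 17 of 18 tested and 0 lower, with a median of 0.98. Surf6, a nucleolar protein gene, was at 107 and 118 in wild type and 296 and 326 in EcR-RNAi (1.46 ± 0.13, limma padj = 9.7e-06). The pseudouridine synthase gene Nop60B was at 353 and 325 against 760.3 and 868 (1.26 ± 0.11, limma padj = 8.5e-06). Both genes were above 2-fold. The ribosomal proteins themselves were mostly not called. Of 87 cytosolic ones tested, 5 rose and 1 fell, with a median of 0.07, though 37 were called higher with quantile scaling, 15 with upper-quartile scaling and 8 with TMM scaling or without either EcR-RNAi library at -6 h. Of those that rose, RpL24-like (0.95 ± 0.11, limma padj = 6.0e-05), RpL7-like (1.09 ± 0.13, limma padj = 8.3e-05) and RpLP0-like (1.1 ± 0.15, limma padj = 1.5e-04) resemble yeast assembly factors rather than parts of the finished ribosome. The other changes were RpS19b (2.02 ± 0.32, limma padj = 4.6e-04), RpS27 (0.44 ± 0.16, limma padj = 0.0438, at most 0.385 in the alternatives) and RpS21 (-0.49 ± 0.15, limma padj = 0.0194, at most 0.537 in the alternatives). Of 72 mitochondrial ribosomal protein genes, 12 rose and 0 fell, with a median of 0.27. mRpL27 was at 166 and 157 against 271 and 256 (0.7 ± 0.13, limma padj = 0.00134), and mRpS30 at 301 and 232 against 431 and 423 (0.69 ± 0.14, limma padj = 0.00183). The increases numbered 25 with upper-quartile scaling, and 6 with DESeq2 or without either EcR-RNAi library.

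**Figure D4:**
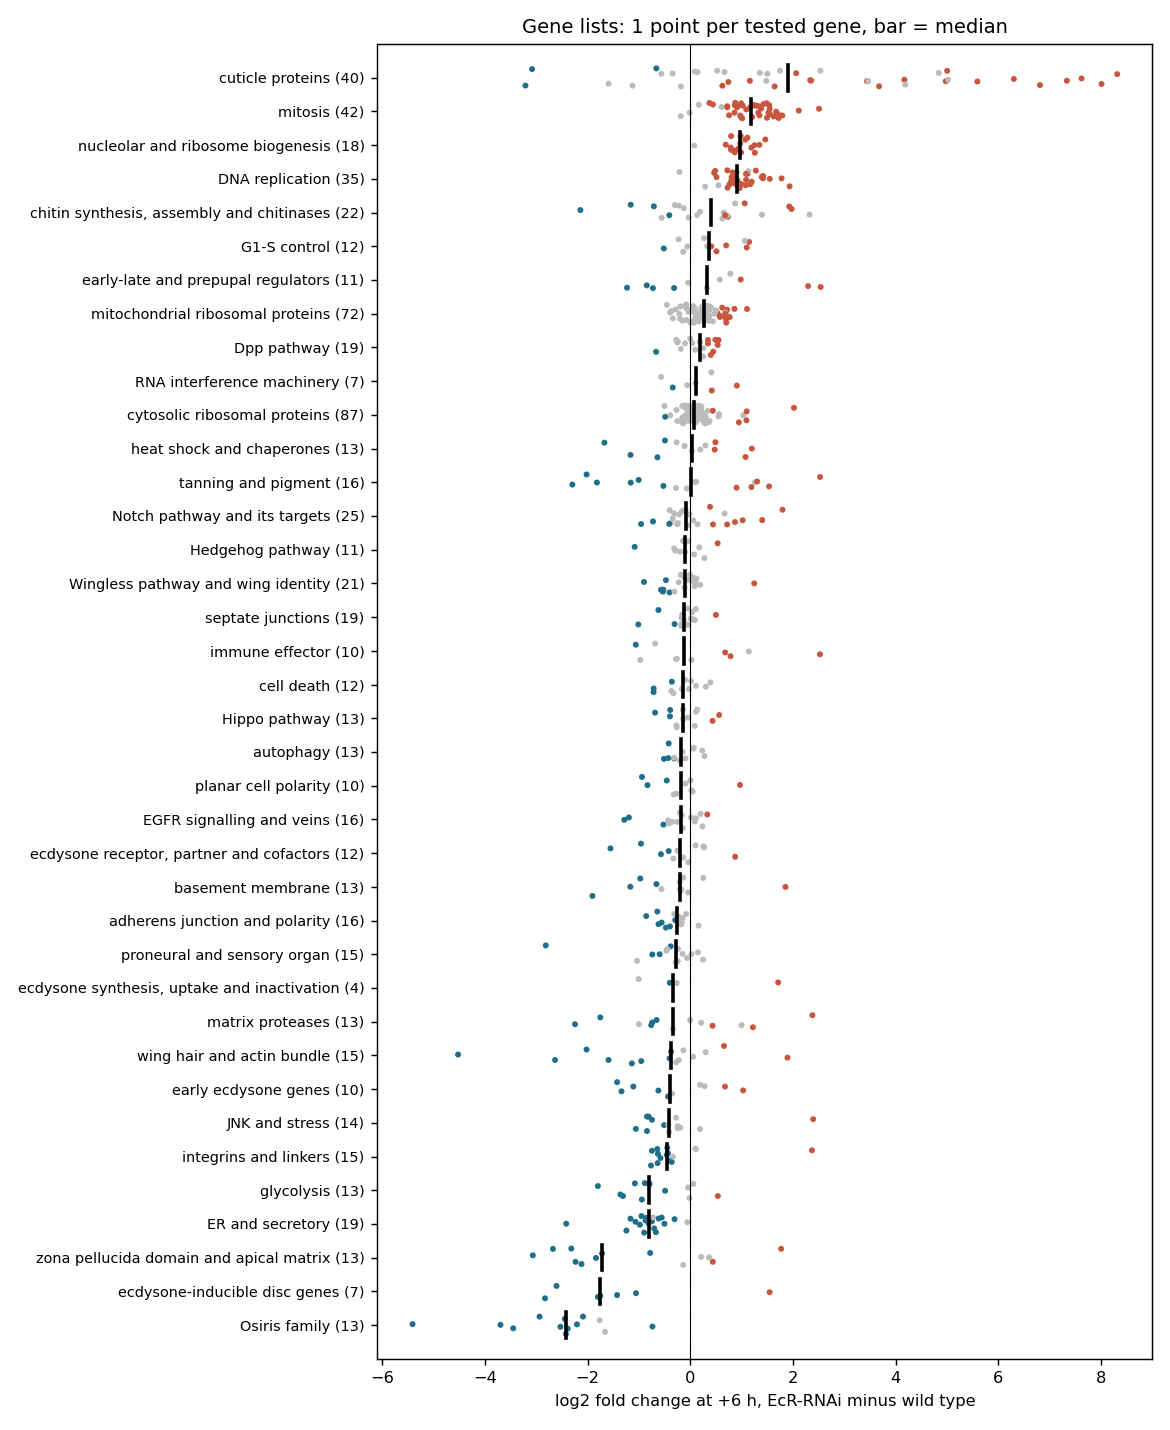
Each point is 1 tested gene of a group, placed by its log2 fold change at +6 h (EcR-RNAi minus wild type). Red points were called higher, blue lower and grey not called, the black bar is the median, and the number of tested genes follows each name. Groups are ordered by median, from 1.91 for cuticle proteins to -2.42 for the Osiris family, with nearly all points of mitosis, DNA replication and ribosome assembly genes to the right of 0.

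The patterning and signalling groups, from the Dpp pathway to the Hippo pathway, had medians between -0.28 and 0.19. Of 19 Dpp pathway genes, 7 rose and 1 fell, with a median of 0.19. The antagonist gene sog was at 392 and 386 in wild type and 609 and 536 in EcR-RNAi (0.55 ± 0.13, limma padj = 0.00674, at most 0.0722 in the alternatives), and the receptor gene put at 859 and 909 against 1116 and 1129.5 (0.34 ± 0.095, limma padj = 0.0129, at most 0.0777 in the alternatives). The glypican gene dlp fell from 2525 and 3339 to 1854 and 1807 (-0.67 ± 0.13, limma padj = 0.00183). The increases of the group numbered 1, 4, 0 and 3 without wild-type replicate 1, wild-type replicate 2, EcR-RNAi replicate 1 and EcR-RNAi replicate 2, respectively.

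Of 21 genes of the Wingless pathway and wing identity, 6 fell and 1 rose, with a median of -0.11 (0.043 with upper-quartile and 0.11 with quantile scaling). The ligand gene Wnt4 was at 467 and 459 in wild type and 256 and 239.7 in EcR-RNAi (-0.9 ± 0.15, limma padj = 7.6e-04), and Notum, which inactivates Wnt proteins, at 1035 and 1010.1 against 696 and 716 (-0.53 ± 0.1, limma padj = 0.00146). tio, a zinc finger gene, rose from 262 and 282 to 673 and 622 (1.25 ± 0.14, limma padj = 5.4e-05). The decreases numbered 3 with quantile scaling, where 4 genes were called higher, and 2 without replicate 2 of EcR-RNAi. Of 11 Hedgehog genes 1 rose and 1 fell (median -0.10, turning to 0.054 and 0.061 with upper-quartile and quantile scaling). smo, the signal transducer, was at 269.9 and 313 against 431 and 411 (0.53 ± 0.14, limma padj = 0.00958, at most 0.0712 in the alternatives), and the target gene kn at 2534 and 2804 against 1454 and 1089 (-1.08 ± 0.14, limma padj = 1.5e-04). kn was the larger of these changes.

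Of 16 genes of EGFR signalling and veins, 3 fell and 1 rose, with a median of -0.19 (0.065 with quantile scaling). The decreases numbered 5 when either EcR-RNAi library at -6 h was left out or the 4 libraries were fitted alone, and the increases 3 with upper-quartile or quantile scaling and 0 without any 1 of the 4 libraries at +6 h. The feedback inhibitor gene aos was at 348 and 332 in wild type and 135 and 142 in EcR-RNAi (-1.29 ± 0.13, limma padj = 2.9e-05), and edl, another target of the pathway, at 671 and 745 against 300.2 and 317 (-1.19 ± 0.17, limma padj = 3.3e-04). Ras85D fell by 0.52. The ligand gene spi was at 2428 and 2589.9 against 3115 and 3200.1 (0.33 ± 0.11, limma padj = 0.0359, at most 0.166 in the alternatives). Of 25 genes of the Notch pathway and its targets, 7 rose and 3 fell, with a median of -0.09 (0.064 with upper-quartile and 0.16 with quantile scaling). The decreases numbered 6 when either EcR-RNAi library at -6 h was left out or the 4 libraries were fitted alone. Brd rose from 336 and 248 to 1085 and 928 (1.8 ± 0.17, limma padj = 3.7e-05) and E(spl)m8-HLH from 59.6 and 60.8 to 164 and 158 (1.4 ± 0.15, limma padj = 3.5e-05). E(spl)m2-BFM fell from 2754 and 3158 to 1571 and 1467 (-0.96 ± 0.14, limma padj = 2.9e-04), and fng, which modifies Notch, from 3892 and 3425 to 2217 and 2199.8 (-0.73 ± 0.11, limma padj = 3.6e-04). Target genes of the pathway thus went in both directions.

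Of 15 proneural and sensory organ genes, 4 fell and 0 rose, with a median of -0.28. tx, a basic helix-loop-helix gene, was at 3440.4 and 3479 in wild type and 506 and 477 in EcR-RNAi (-2.81 ± 0.25, limma padj = 2.1e-05). The repressor gene ttk was at 5895 and 6073 against 3766 and 3414 (-0.74 ± 0.13, limma padj = 0.00116), and sc and sens also fell. The decreases numbered 2 without either EcR-RNAi library, with upper-quartile scaling or with DESeq2. Of 13 Hippo pathway genes, 3 fell and 2 rose, with a median of -0.14 (0.017 and 0.087 with upper-quartile and quantile scaling). mats, a kinase adaptor gene, was at 979.8 and 916 against 586 and 592 (-0.69 ± 0.1, limma padj = 2.8e-04), and crb at 2902 and 3171 against 2298 and 2315 (-0.4 ± 0.1, limma padj = 0.00937, at most 0.626 in the alternatives). The target genes ex (0.56 ± 0.17, limma padj = 0.023, at most 0.185 in the alternatives) and fj (0.43 ± 0.12, limma padj = 0.0119, at most 0.0732 in the alternatives) rose. The decreases numbered 1 without wild-type replicate 2 or either EcR-RNAi library, and with upper-quartile or quantile scaling. The increases numbered 0 without either wild-type library or EcR-RNAi replicate 1, and 1 without EcR-RNAi replicate 2.

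Of 14 JNK and stress genes, 6 fell and 1 rose, with a median of -0.42. The phosphatase gene puc, a JNK target, was at 1460.0 and 1384 in wild type and 823 and 762 in EcR-RNAi (-0.84 ± 0.1, limma padj = 7.4e-05), and the TNF receptor gene wgn at 464 and 512 against 282 and 273 (-0.81 ± 0.11, limma padj = 1.7e-04). bsk, the JNK gene itself, msn, egr and upd3 fell too. Gadd45, a stress-induced gene, rose from 221 and 300.0 to 1356 and 1356 (2.39 ± 0.15, limma padj = 7.8e-07). Of 12 cell death genes, 3 fell and 0 rose (median -0.13, and 0.021 with upper-quartile scaling). They were the apoptosis inhibitor genes th, at 3892 and 4166 against 2383 and 2534 (-0.71 ± 0.1, limma padj = 2.9e-04), and Iap2, at 336 and 416 against 212 and 245 (-0.71 ± 0.15, limma padj = 0.00273), and the caspase gene Ice (-0.36 ± 0.1). Inhibitors as well as an effector of cell death were thus among them. Of 13 autophagy genes, 4 fell and 0 rose, with a median of -0.17, and 1 was called lower with upper-quartile or quantile scaling, with DESeq2 or without either EcR-RNAi library, and 2 with TMM scaling or without replicate 1 of wild type. They were Atg8a (-0.51 ± 0.11, limma padj = 0.003, at most 0.15 in the alternatives), Aut1 (-0.43 ± 0.13, limma padj = 0.0193, at most 0.125 in the alternatives), Atg18 and Atg2.

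Of 13 heat shock and chaperone genes, 4 rose and 4 fell, with a median of 0.032. The mitochondrial chaperone gene Hsp60 was at 796 and 728 in wild type and 1567 and 1646 in EcR-RNAi (1.08 ± 0.11, limma padj = 2.1e-05), and the small heat shock gene Hsp23, itself ecdysone-inducible, at 3381 and 3327 against 8709.8 and 6808 (1.2 ± 0.15, limma padj = 1.1e-04). Hsp67Bc fell from 218 and 178 to 48 and 77.9 (-1.67 ± 0.31, limma padj = 0.00129), and Hsc70-3 as above. Hsp27 and Hsc70-5 were the others that rose, and Hsp26 and Hsp68 the others that fell. Of 16 genes of adherens junctions and polarity, 7 fell and 0 rose, with a median of -0.26. The adhesion gene ed was at 20465 and 20675 against 12102 and 10655 (-0.86 ± 0.17, limma padj = 0.00205), and yrt at 2564 and 2655 against 1749 and 1649 (-0.62 ± 0.12, limma padj = 0.00136). The decreases numbered 4 with upper-quartile and 2 with quantile scaling, 3 without replicate 2 of wild type, and 4 and 2 without replicates 1 and 2 of EcR-RNAi. Of 19 septate junction genes, 3 fell and 1 rose (median -0.12, and 0.03 and 0.098 with upper-quartile and quantile scaling), with nrv1 at 1079.7 and 1129.7 against 554 and 542 (-1.01 ± 0.1, limma padj = 2.1e-05), vari at 2493 and 2556 against 1694 and 1594 (-0.62 ± 0.1, limma padj = 5.3e-04), and crok at 168 and 174 against 237 and 248 (0.5 ± 0.13, limma padj = 0.00929, at most 0.0625 in the alternatives).

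The hairpin works through the RNA interference machinery. Of 7 of its genes, 2 rose and 1 fell, with a median of 0.11. The helicase gene armi was at 186 and 264 in wild type and 424 and 410.4 in EcR-RNAi (0.91 ± 0.15, limma padj = 6.3e-04), and the calls of Dcr-1 (0.42 ± 0.13, limma padj = 0.0265, at most 0.17 in the alternatives) and Dcr-2 (-0.34 ± 0.13, limma padj = 0.0488, at most 0.267 in the alternatives) each ended under several alternatives. Of 46 immune genes, 10 could be tested, and 3 rose and 1 fell, with a median of -0.12 (0.036 with upper-quartile scaling). Tep1 was at 4.47 and 3.15 against 28.3 and 24.7 (2.52 ± 0.49, limma padj = 0.00184) and PGRP-LE at 119 and 148 against 226 and 201 (0.68 ± 0.15, limma padj = 0.00388), and PGRP-LC rose too. Tep3 fell from 992 and 898 to 472 and 432 (-1.06 ± 0.11, limma padj = 2.2e-05). Beside these, the larval serum protein genes Lsp1alpha, Lsp1beta and Lsp1gamma rose, 3 of 6 fat body markers tested and close copies of each other, and the marker list summed to 355 and 259 in wild type and 747 and 883 in EcR-RNAi. With any of the 4 libraries left out, or with edgeR, 1 of these markers was called. Yp1 of that list was at 0 in all 4 libraries. The filter limit given above for cuticle genes holds for the immune and fat body lists too. The part of fat body RNA in these results was not tested.

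The tissue label was checked against marker genes. All 8 wing epithelium markers (vg, nub, ap, sd, bs, Dll, bi and salm) were well above the filter, and 0 were called, with summed levels of 19984 to 19997 in wild type and 19099 to 22356 in EcR-RNAi. Myoblast and muscle precursor markers, of cells that adhere to the disc, had 3 of 9 called higher (Mef2, Him and stumps) and summed to 7308 to 8617 and 8937 to 8982. Of 6 striated muscle markers tested, 4 fell (Mlc2, bt, sls and TpnC73F), with TpnC47D at 0 throughout, and the list summed to 11740 to 12330 and 10305 to 10708. Of 9 haemocyte markers tested among 12, He, proPO-A1 and proPO45 rose from near 0 and Hml and ush fell. Genes near 0 in wild type could pass the filter through their EcR-RNAi levels alone, which can tilt this split. The haemocyte list summed to 2271 to 2541 and 1655 to 1791. Of 5 neuron and glia markers, brp and moody fell, with Gad1 at 0 and sums of 902 to 1048 and 744 to 786. The 20 gut markers summed to 11.9 to 14.7 in wild type and 2.46 to 4.93 in EcR-RNAi, with 14 at 0 in all 4 libraries, and of 17 salivary glue markers 13 were at 0. None of the 3 tracheal markers was called. What other cell types add to the differences described was not tested.

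Several of the largest differences lay outside these groups. The eye colour gene w, which encodes a pigment precursor transporter and is also the usual marker on fly transgenes, was at 17.9 and 16.8 in wild type and 2943 and 3667 in EcR-RNAi (7.49 ± 0.17, limma padj = 9.5e-10). At -6 h it was at 13.6 and 19.2 against 3907 and 3899 (7.83 ± 0.17). mthl8, a gene for a receptor of the Methuselah family, had no read in wild type at +6 h and 140.2 and 177 normalized counts in EcR-RNAi, which is at least 86.8-fold higher, taking 3 wild-type reads over both libraries as the floor. CHKov1, a gene with known natural alleles that differ between fly strains, was at 17.9 and 12.6 against 1609 and 1531 (6.61 ± 0.4, limma padj = 3.0e-05), and at 6.78 and 11.5 against 1587 and 729.7 at -6 h. For these 3 genes the interaction was not called. Aldh, the aldehyde dehydrogenase gene, rose from 16.4 and 13.6 to 534 and 573 (5.12 ± 0.38, limma padj = 3.2e-05). Among genes without a name, CG15213 was at 8.95 and 0 against 1119.5 and 1198 (8.52 ± 1.46, limma padj = 0.00983, at most 0.0566 in the alternatives), and CG34247 at 2.98 and 5.25 against 1088 and 1105 (7.78 ± 0.71, limma padj = 3.8e-04). CG8736 had 3 wild-type reads, and its level in EcR-RNAi was 410 times as high, with a 95% counting interval of 140 to 1990.

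Among the genes that fell, Syn is the synapsin gene of nerve terminals. It was at 349 and 344 in wild type and 0 and 0.987 in EcR-RNAi, where 1 read was counted. The wild-type level was 632 times as high (95% counting interval 113 to 25000). CG6912, also with 1 read in EcR-RNAi, was 552 times as high in wild type (98.7 to 21900). CG8086 fell from 2528 and 3472 to 73.8 and 66.1 (-5.39 ± 0.17, limma padj = 2.5e-08) and CG43103 from 198 and 129 to 1.23 and 2.96 (-5.76 ± 0.51, limma padj = 9.7e-06). slif, an amino acid transporter gene, was at 674 and 748 against 48 and 57.2 (-3.74 ± 0.23, limma padj = 9.3e-07). ninaC, a gene for a myosin kinase known from photoreceptors, was at 189 and 164 against 8.61 and 13.8 (-3.89 ± 0.38, limma padj = 1.7e-05). These 6 genes were called lower in every alternative. The cytochrome P450 genes Cyp6a23 (-3.84 ± 0.72, limma padj = 0.00311) and Cyp4e1 (-3.53 ± 0.56, limma padj = 5.8e-04), the septin gene Sep4 (-3.37 ± 0.39, limma padj = 5.9e-05), Gbp (-3.41 ± 0.67, limma padj = 0.00181) and the glutathione transferase gene GstE1 (-3.17 ± 0.2, limma padj = 1.1e-06) completed the list. GstE1 was also lower in EcR-RNAi at -6 h, with 232 and 189 against 15.6 and 17.2.

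At -6 h, in other libraries, 584 genes were called higher in EcR-RNAi (7.51%) and 261 lower (3.36%). These counts were 354 and 100 without replicate 2 of wild type at -6 h. The lower calls numbered 562 without replicate 1 and 146 without replicate 2 of EcR-RNAi at -6 h. Of the genes higher at +6 h, 204 were also higher at -6 h (12.3% of the +6 h list and 34.9% of the -6 h list) and 24 were lower. Of the genes lower at +6 h, 151 were also lower at -6 h (8.99% and 57.9%) and 207 were higher (12.3% and 35.4%). Called in the same direction at both stages, with no call in the interaction, were 279 genes, 162 higher and 117 lower, among them w, mthl8, CHKov1 and GstE1. The interaction was positive for 905 genes (11.6%) and negative for 1197 (15.4%). The positive ones numbered 1377 with upper-quartile scaling and 584 without replicate 2 of EcR-RNAi at +6 h.

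Cell division and ribosome assembly genes had positive interactions. Of the mitosis genes 36 of 42, of the DNA replication genes 29 of 35 and of the ribosome assembly genes 16 of 18 had a positive interaction, and 0 a negative one. At -6 h their medians were -0.0068, -0.26 and -0.043. Of the Osiris genes 12 of 13, of the secretory genes 15 of 19, of the glycolysis genes 10 of 13 and of the apical matrix genes 8 of 13 had a negative interaction. The median of the Osiris genes was 1.24 at -6 h, where 5 were called higher, and -2.42 at +6 h. Their summed levels at -6 h were 990 and 1112 in wild type and 7272 and 20322 in EcR-RNAi. The part of this spread between EcR-RNAi replicates in the Osiris interactions was not tested. The cuticle genes had a median of 2.09 at -6 h and 1.91 at +6 h, and 5 interactions in each direction of 40 tested. Both medians carry the limit of the filter given above for this group. Summed levels of markers of other organs differed between the larval libraries in both directions. Of the marker lists given next, 0 members were called lower in EcR-RNAi at -6 h. The gut list summed to 7.74 and 10.3 in wild type and 1414 and 378 in EcR-RNAi. The 4 gut markers tested passed the filter only through these EcR-RNAi libraries. Their calls as higher at -6 h are therefore no separate result. Of 6 fat body markers tested 4 were called higher, with sums of 584 and 216 against 1874 and 4650. The salivary glue list summed to 134 and 19.9 against 2.92 and 8.19, and the neuron and glia list to 868 and 938 against 765 and 436. Immune genes, 7 of 10 of them called higher at -6 h, had 6 negative interactions. Only 10 of 46 immune genes could be tested, and genes near 0 in wild type could pass the filter through EcR-RNAi alone. This can tilt these counts, and the same limit holds for the fat body list. Whether the transcripts of these lists came from the wing itself, and their part in the interactions, was not tested.

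The basic helix-loop-helix gene tx had an interaction of -7.06 ± 0.35, limma padj = 1.2e-06. In wild type it went from 1.94 and 3.84 at -6 h to 3440.4 and 3479 at +6 h, and in EcR-RNAi from 57.5 and 86 to 506 and 477, so it was higher in EcR-RNAi before puparium formation and lower after it. ImpL1 showed the same reversal, with 65.8 and 91 in wild type and 585 and 1114 in EcR-RNAi at -6 h and an interaction of -6.19 ± 0.44, limma padj = 1.7e-04. Others called higher at -6 h and lower at +6 h were CG14110 (-6.87 ± 0.59, limma padj = 1.5e-05), CG31437 (-6.38 ± 0.67, limma padj = 6.1e-05) and CG6118 (-6.2 ± 0.35, limma padj = 1.5e-05), and of these the -6 h call of CG31437 ended in the alternatives (adjusted p at most 0.21). Osi3 (-6.03 ± 0.63, limma padj = 5.6e-05) was low in both genotypes at -6 h. Among genes called in the interaction and at +6 h, with 100 or more normalized counts on average in the higher genotype, positive interactions were led by CG8736 (5.9 ± 1.64, limma padj = 0.0478, at most 0.331 in the alternatives), Edg91 (5.75 ± 0.86, limma padj = 0.00207), Aldh (4.16 ± 0.54, limma padj = 0.0011), CG34247 (3.93 ± 1.0, limma padj = 0.0348, at most 0.338 in the alternatives), CG14304 (3.34 ± 0.68, limma padj = 0.0144, at most 0.0608 in the alternatives) and CG13053 (3.1 ± 0.61, limma padj = 0.0139, at most 0.0649 in the alternatives). Blimp-1 was at 6124 and 5711 in wild type and 1518 and 857 in EcR-RNAi at -6 h, below wild type then and above it by value at +6 h, with an interaction of 3.16 ± 0.38, limma padj = 0.00141. ftz-f1 and Cyp18a1 had the opposite sign, -3.25 ± 0.41, limma padj = 0.00212 and -3.16 ± 0.48, limma padj = 0.00438. For cuticle genes the EcR-RNAi replicates at -6 h were far apart, with Edg78E at 279.7 and 3196, and the part of this spread in the interaction was not tested.

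**Figure D5:**
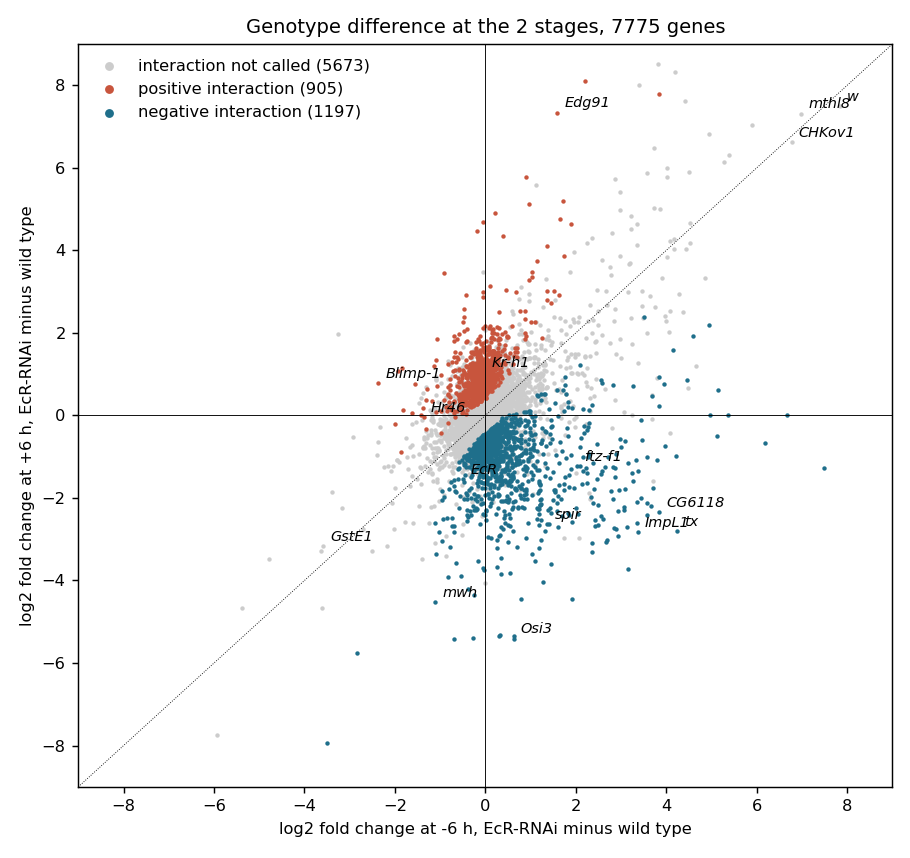
Each point is 1 of the 7775 genes, with the log2 fold change (EcR-RNAi minus wild type) at -6 h on the horizontal axis and at +6 h on the vertical axis. Colour marks the test of the difference between stages, red for the 905 positive and blue for the 1197 negative interactions, and the dotted diagonal marks equal differences. w, mthl8, CHKov1 and GstE1 lie near the diagonal, and tx, ImpL1 and CG6118 in the lower right, above 0 at -6 h and below 0 at +6 h.

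Recovered reads ranged from 6444939 to 10016236 per library, and replicates correlated across genes with r of 0.982 to 0.991. On the leading principal component, with 67.4% of the variance, the wild-type wing moved from -63.6 and -65.1 before puparium formation to 77.1 and 70.1 after it. The EcR-RNAi wing moved from -44.0 and -29.5 to 27.9 and 27.1. Called genes lay beside other called genes of the same direction slightly more often than tested genes did in general: 41.6% of those higher had a higher neighbour, against 37.6% of all placed genes, and 44.2% of those lower had a lower one, against 38.3%.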

How the data were processed

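RNA was measured in 8 libraries and CUT&RUN in 4; the CUT&RUN peaks were not analysed here. The deposited expression values are normalized counts, a signal: the authors divided the reads of each library by a size factor. Tools named in the submitters' processing notes are DESeq2 1.14.1, STAR 2.5.2b, Subread 1.24.2 and SAMtools 1.3.1, and the build is dm3. No source used here gives the strand handling; antisense and overlapping genes, like close copies, are therefore uncertain. The authors' deposited table of comparisons holds log2 fold changes and adjusted p-values, used only where it is named.

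Dividing by the step of 1 read gave whole numbers in 100% of cases (within 0.1 of a read). Of 15240 genes, 3291 had no read, and 7775 passed the mean of 10. The main test was limma (version 3.58.1, R 4.3.3; trend and robust) on log2(normalized count + 1), which understates changes of low genes. The model had 4 group means over 8 libraries, and p-values were adjusted over all 7775 genes by Benjamini-Hochberg. Alternatives were edgeR 4.0.16 and DESeq2 1.42.0 on the recovered reads, limma without trend and robust settings, pseudocounts of 0.5 and 5, no filter or a mean of 50, upper-quartile, quantile and TMM scaling, the 4 libraries of a comparison alone, each library left out, and a replicate block. Folds against a group without reads used 3 reads for that group. Ratios with 1 to 3 reads carry exact Clopper-Pearson intervals (95%). Both cover counting error only. Sample titles gave the groups.

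The comparison, its gene groups and the markers were chosen with earlier results of these data known. Named by rule were EcR and, in each direction, the 12 largest changes among genes with a name. In each direction the 3 largest among genes without a name were added (mean of at least 100 in the higher genotype for both). The rule also took the 2 genes per group and direction with the smallest adjusted p. All tested genes of the ecdysone groups and the 6 largest interactions in each direction completed it. Other genes were named after their values were seen. A few symbols that stood in a wrong group were dropped. Gene order is from RefSeq's Release 6 annotation, for 7625 tested genes matched by symbol or synonym. Binding sites by gene and promoter sequences were not analysed here.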

Additional observations from a re-analysis of the deposited data

Results flagged for a closer look

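The genotype difference changed between -6 h and +6 h, by limma's interaction test, for a number of the genes named above. All values here are the interaction, the log2 fold change between EcR-RNAi and wild type at +6 h minus that at -6 h.

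Among the receptor and cofactor genes the interaction was -1.06 ± 0.2 (limma padj = 0.00234) for EcR, -0.65 ± 0.16 (limma padj = 0.0119, at most 0.111 in the alternatives) for usp and -1.74 ± 0.19 (limma padj = 7.3e-05) for DOR. It was -0.55 ± 0.14 (limma padj = 0.0141, at most 0.17 in the alternatives) for bon and 1.0 ± 0.18 (limma padj = 0.00206) for rig.

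Of the early genes, E23 was at -2.26 ± 0.15 (limma padj = 2.9e-06), vri at -1.92 ± 0.25 (limma padj = 5.1e-04) and Eip71CD at -1.48 ± 0.18 (limma padj = 1.5e-04), all negative. Positive values were those of Eip75B at 0.55 ± 0.17 (limma padj = 0.0392, at most 0.143 in the alternatives), Kr-h1 at 1.05 ± 0.19 (limma padj = 0.00186) and crol at 0.61 ± 0.19 (limma padj = 0.0339, at most 0.134 in the alternatives).

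Among prepupal regulators and hormone metabolism, Blimp-1 was at 3.16 ± 0.38 (limma padj = 0.00141), let-7-C at 1.96 ± 0.27 (limma padj = 3.7e-04) and chinmo at 1.78 ± 0.5 (limma padj = 0.0408, at most 0.139 in the alternatives). Hr46 was at 1.32 ± 0.18 (limma padj = 3.1e-04) and Hr39 at 1.03 ± 0.17 (limma padj = 0.00141). ftz-f1 was at -3.25 ± 0.41 (limma padj = 0.00212) and Cyp18a1 at -3.16 ± 0.48 (limma padj = 0.00438).

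For the disc genes the values were -6.19 ± 0.44 (limma padj = 1.7e-04) for ImpL1, -2.48 ± 0.2 (limma padj = 1.1e-05) for ImpL3 and -1.85 ± 0.18 (limma padj = 4.1e-05) for Sb. They were -1.48 ± 0.19 (limma padj = 2.7e-04, at most 0.104 in the alternatives) for ImpE1, -0.89 ± 0.21 (limma padj = 0.0106, at most 0.0543 in the alternatives) for ImpL2 and 0.84 ± 0.2 (limma padj = 0.011, at most 0.0629 in the alternatives) for ImpE3.

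Outside the ecdysone groups, among genes called in the interaction and at +6 h with a mean of at least 100 in the higher genotype, the most negative values were -7.06 ± 0.35 (limma padj = 1.2e-06) for tx, -6.87 ± 0.59 (limma padj = 1.5e-05) for CG14110 and -6.38 ± 0.67 (limma padj = 6.1e-05) for CG31437, followed by -6.2 ± 0.35 (limma padj = 1.5e-05) for CG6118 and -6.03 ± 0.63 (limma padj = 5.6e-05) for Osi3. Under the same limits the largest positive ones were 5.9 ± 1.64 (limma padj = 0.0478, at most 0.331 in the alternatives) for CG8736, 5.75 ± 0.86 (limma padj = 0.00207) for Edg91 and 4.16 ± 0.54 (limma padj = 0.0011) for Aldh. CG34247 was at 3.93 ± 1.0 (limma padj = 0.0348, at most 0.338 in the alternatives), CG14304 at 3.34 ± 0.68 (limma padj = 0.0144, at most 0.0608 in the alternatives) and CG13053 at 3.1 ± 0.61 (limma padj = 0.0139, at most 0.0649 in the alternatives). Of the Notch group, Brd was at 2.21 ± 0.25 (limma padj = 1.7e-04), E(spl)m2-BFM at -1.1 ± 0.2 (limma padj = 0.00212) and fng at -0.7 ± 0.16 (limma padj = 0.00642, at most 0.101 in the alternatives).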

How the results depend on the processing

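Over the 8 fits that each left out 1 library, 1094 to 1708 genes were called higher and 1196 to 1811 lower in EcR-RNAi at +6 h. At -6 h the ranges were 354 to 697 and 100 to 562, and for the interaction 584 to 991 positive and 862 to 1192 negative. With upper-quartile scaling 1377 interactions were positive, while the other count totals stayed within 1.5 times of their reported values under every alternative that kept all libraries.

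Of the 171 genes named by rule, 155 were called at +6 h and 126 of them in every alternative. The call of 29 ended in at least 1 alternative, 0 changed sign, and 10 others, not called here, were called in at least 1. Of 111 called interactions, 72 held in every alternative and 39 ended in at least 1. Among the group counts, quantile scaling gave 4 members called higher for receptor and cofactor genes, wing hair, septate junctions and the Wingless pathway (reported as 1, 2, 1 and 1), 4 for early genes (2) and 7 for heat shock genes (4). It gave 3 for wing epithelium markers (0). Quantile scaling also moved log2 fold changes of called genes by over 1.5 times. Smaller ones were -0.34 for usp, -0.33 for Eip74EF, -0.55 for Hr4, -0.58 for stan, -0.34 for Pax, -0.35 for dlp, -0.34 for Notum, -0.36 for fng, -0.4 for ttk, -0.35 for th, -0.72 for Hsc70-3, -0.31 for yrt, -0.31 for vari and -1.44 for CG6118, and larger ones 0.72 for pio, 1.18 for obst-A, 0.82 for Hex-A, 0.52 for put, 0.66 for spi, 0.76 for fj and 0.85 for ex. Without single libraries at +6 h the called myoblast and haemocyte markers fell to 1 and the striated muscle ones to 2. The cause was not tested.

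Replicate numbers were not treated as pairs in the main test. The correlation of replicate-1 deviations between groups ranged from -0.148 to 0.129 and was -0.0362 between the genotypes at +6 h. With 2 libraries per group this cannot show whether replicates were prepared as pairs. With the replicate block 1647 genes were higher and 1679 lower at +6 h, 566 and 252 at -6 h, and 889 and 1172 in the interaction. Depth limits genes with few reads, for which fold changes near 0 were not detectable with 2 libraries per group.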
